A study of Gallus gallus with 8 samples.

Results

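The wild-type (WT) expression profile of DT40 cells is described here from 3 scanner arrays labelled WT, out of 8 arrays in 3 groups. The other groups are cells deficient in BCL6 (BCL6KO, 2 arrays) and cells titled DKO (3 arrays), read here as deficient in IRF4 and in BCL6 together. Only the WT arrays enter the profile, no contrast between groups was tested, and no treatment or time point is given for any group. Readings on the DKO-labelled arrays are set beside some genes because the labels were in doubt, and they are given without a test. Genes were taken as members when a probe accession matched a chicken RefSeq symbol (assembly GRCg7b), which gave 4886 genes on 10619 of 43603 probes. A gene was called expressed when at least 1 of its probes was well above background on 3 of 3 WT arrays, and not detected when all its probes were so on 0 of 3. Genes between these rules are called detected in part. Each gene is given the log2 level of its brightest probe, for which the array's 75th percentile was subtracted from log2 of the processed signal, so 0 is that percentile. Brightness also depends on the probe, so an order of genes by level is an order of probe signals and not of transcript numbers. The order and the classes chose the genes named below, and they are given as a description without a test.

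DT40 is a B cell line grown from a chicken bursal lymphoma that an avian leukosis virus had induced, and all groups of the series derive from it. In the chicken, B cells mature in the bursa of Fabricius, where they diversify an assembled immunoglobulin gene by gene conversion, copying stretches of upstream pseudogenes into it. The B cell receptor is a surface immunoglobulin held by the CD79 chains, which pass its signal to the kinases LYN, SYK and BTK. DT40 cells go on diversifying their immunoglobulin genes in culture and have long served for gene targeting. As a model, the line is a clonal tumour, and the profile is of cultured cells and not of bursal tissue.

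The label of the WT arrays was checked before any result. In the value table deposited by the authors, the 3 columns labelled WT followed the scanner arrays labelled DKO of the same replicate number, with a Spearman's rho of 1 across 43603 probes, against 0.926 to 0.93 with their own scanner arrays. Each of the 3 columns labelled DKO was closest to WT scanner array 1, at 0.849, 0.969 and 0.967 for replicates 1, 2 and 3, and followed no scanner array with a rho of 1. Both BCL6KO columns followed their own scanner arrays with a rho of 1. The scanner label was kept here, as the rule for this profile is written on the scanner files. On the arrays labelled WT, IRF4 read 3.18, 2.98 and 2.93 and BCL6 read 2.58, 2.60 and 2.54. Both genes were expressed on these 3 arrays, with 2 of 2 probes for IRF4 and 4 of 4 for BCL6. The probes lay far apart in level, with means from -3.10 to 3.03 for IRF4 and from -2.04 to 2.57 for BCL6, and the readings above are of the brightest. On the scanner arrays labelled DKO, the same probe choice gave means of -1.71 for IRF4 and 0.82 for BCL6. Both genes were classed as expressed there too, so the class did not separate the labels, and the levels were lower on the arrays labelled DKO. Where a gene named below passed from expressed to not detected or the reverse on the DKO-labelled arrays, its mean there is given beside it. Genes that kept their class could still differ in level. Means on the WT-labelled and DKO-labelled arrays were 3.51 and -4.38 for TNFSF13B, and 4.51 and -4.03 for LITAF. They were 1.28 and -5.65 for TLR7 and, the other way, -5.38 and 1.03 for HBBA. Of the 4886 genes, 3548 were expressed on both sets of arrays and 725 were not detected on either, while 75 were expressed on the WT-labelled set and not detected on the other, and 107 the reverse.

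Each array read 43803 spots that were not controls, of which 67.8%, 68.2% and 62.4% were well above background on arrays 1, 2 and 3. The dimmest probe still well above background had a log2 level of -6.81, -6.85 and -6.04. Array 3 therefore had the highest floor and the fewest detected spots. No spot was saturated (0 on each array). Of 153 negative control spots, 4, 2 and 3 were well above background on arrays 1 to 3 and 0 on all 3 arrays. On 0 of 3 arrays were 144 of them, and the rest would count as detected in part, a class that negative controls thus reach too. The extraction protocol speaks of independent cultures of WT and of IRF4KO cells and names no other group. Each WT array lay on its own slide, so slide and culture cannot be told apart.

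Of the 4886 genes, 3657 (74.8%) were expressed, 303 (6.2%) were detected in part and 926 (19%) were not detected. These shares are the background for every count of members below. The median log2 level was 1.10 for expressed genes and -8.38 for genes not detected, and -0.35 over all genes. No gap separated the classes. The dimmest expressed gene, ACTA2, had a mean of -6.40, while the brightest gene not detected, IRX2, had -6.35. On the DKO-labelled arrays these genes changed places, with ACTA2 not detected at -7.04 and IRX2 expressed at -5.19. Both sat at the arrays' floors, so a class near there rests on small differences in signal.

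**Figure D1:**
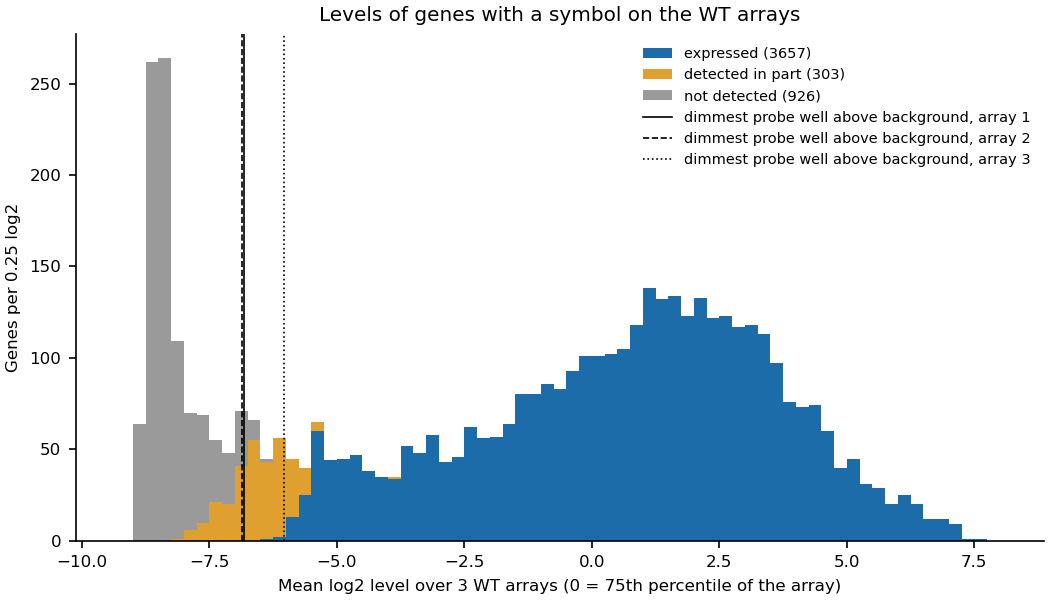
Mean log2 level over the 3 WT arrays (x axis, 0 is the 75th percentile of the array) against the number of genes per 0.25 log2 (y axis, stacked by class). Genes not detected pile up near a median of -8.38, below the vertical lines that mark the dimmest probe well above background on each array, and expressed genes spread around a median of 1.10.

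The brightest genes were those of protein synthesis, chaperones and glycolysis. Of the 30 genes with the highest mean level, 13 encode ribosomal proteins, among them RPL7A, RPLP1, RPS15, RPL35, RPL6, RPS3A, RPL30, RPL3, RPS14, RPS3 and RPL4. TMSB15B, a thymosin that binds actin monomers, read 7.68, 7.49 and 7.49 and led the order. RACK1, a scaffold protein of the small ribosomal subunit, followed at 7.55, 7.44 and 7.46. The chaperone HSP90AA1 read 7.35, 7.13 and 6.94, and HSPA8 had a mean of 6.72 ± 0.05 (SD, n = 3). GAPDH, ENO1, ALDOC and PGAM1, all enzymes of glycolysis, lay between 6.71 and 7.11. FTH1, the heavy chain of the iron store ferritin, had a mean of 7.09 ± 0.09 (SD, n = 3).

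The rest of these 30 genes included PABPC1, which binds poly(A) tails, ACTB, EEF2, PPIA, TPT1, ITGB1BP3 and HINTW. HINTW is a multi-copy gene of the W chromosome, which only female chickens carry. It read 6.80, 6.74 and 6.77, with 7 of 7 probes well above background on every array and probe means of 5.36 to 6.77. ITGB1BP3, which in mammals encodes a kinase of nicotinamide riboside found mostly in muscle, read 6.99, 6.88 and 6.82. Outside ribosomal proteins, translation factors, histones, actins and tubulins the 15 brightest genes all fall within this group of 30. Taking the mean over all probes of a gene in place of its brightest probe kept 18 of the 30.

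Complexes that every growing cell needs were complete as far as they were measured. All 19 large and all 9 small cytosolic ribosomal proteins were expressed, with median log2 levels of 6.43 and 6.75. The same held for 20 of 20 mitochondrial ribosomal proteins (median 3.73), 20 of 20 proteasome subunits (4.47), 7 of 7 subunits of the cytosolic chaperonin (5.73), 22 of 22 splicing proteins (4.60) and 20 of 20 subunits of the respiratory chain and ATP synthase (4.69). Of 25 translation initiation and elongation factors 24 were expressed, and EEF1B2 was detected in part at -5.98. Each of these shares lies above the 74.8% over all genes.

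The B lineage transcription factors were mostly present. Of 27 with a named probe, 25 (92.6%) were expressed, with a median log2 level of 0.45. POU2AF1, the B cell coactivator of the octamer-binding factors, was the brightest at 5.13, 4.96 and 5.01. TCF12, an E protein, read 3.49, 3.46 and 3.55. These 2 genes had all probes, 3 and 11, well above background on every array. BCL11A, needed for early lymphoid development in mice, read 2.56, 2.55 and 2.61, beside BCL6 and IRF4 at the levels given above.

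EBF1, which specifies the B lineage in mammals, read 0.33, 0.29 and 0.32. TCF3, the other E protein on the array, read 0.47, 0.52 and 0.51. PAX5, which keeps B cells committed, was dimmer at -2.67, -2.76 and -2.74 on its 1 probe. Every value of these 3 genes stood well clear of the floor, and the arrays differed by at most 0.09 log2 within a gene. The further expressed members were CBFB, GABPA, FOXO1, EAF2, POU2F1, ETS1, IRF8, IKZF1, MYB, RUNX1, SPI1 and LMO2, the inhibitors of E proteins ID1, ID2, ID3 and ID4, and FOXP1. Their means ran from -3.89 for LMO2 to 2.62 for CBFB. ID4 was detected on 1 of 3 probes. SPI1 is a factor of myeloid cells as well as of B cells and read -0.51, -0.40 and -0.43.

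BACH1 and IKZF2 were not detected, each on 1 probe. BACH1, a repressor of haem-responsive genes, read -6.61, -7.06 and -7.46, and IKZF2, an Ikaros family member best known from regulatory T cells in mammals, read -7.22, -9.05 and -8.36. On the DKO-labelled arrays BACH1 was expressed, with a mean of -3.27. TCF4, IKZF3, SPIB, POU2F2, BACH2, MEF2C and RUNX3 had no matched probe and were not analysed here.

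**Figure D2:**
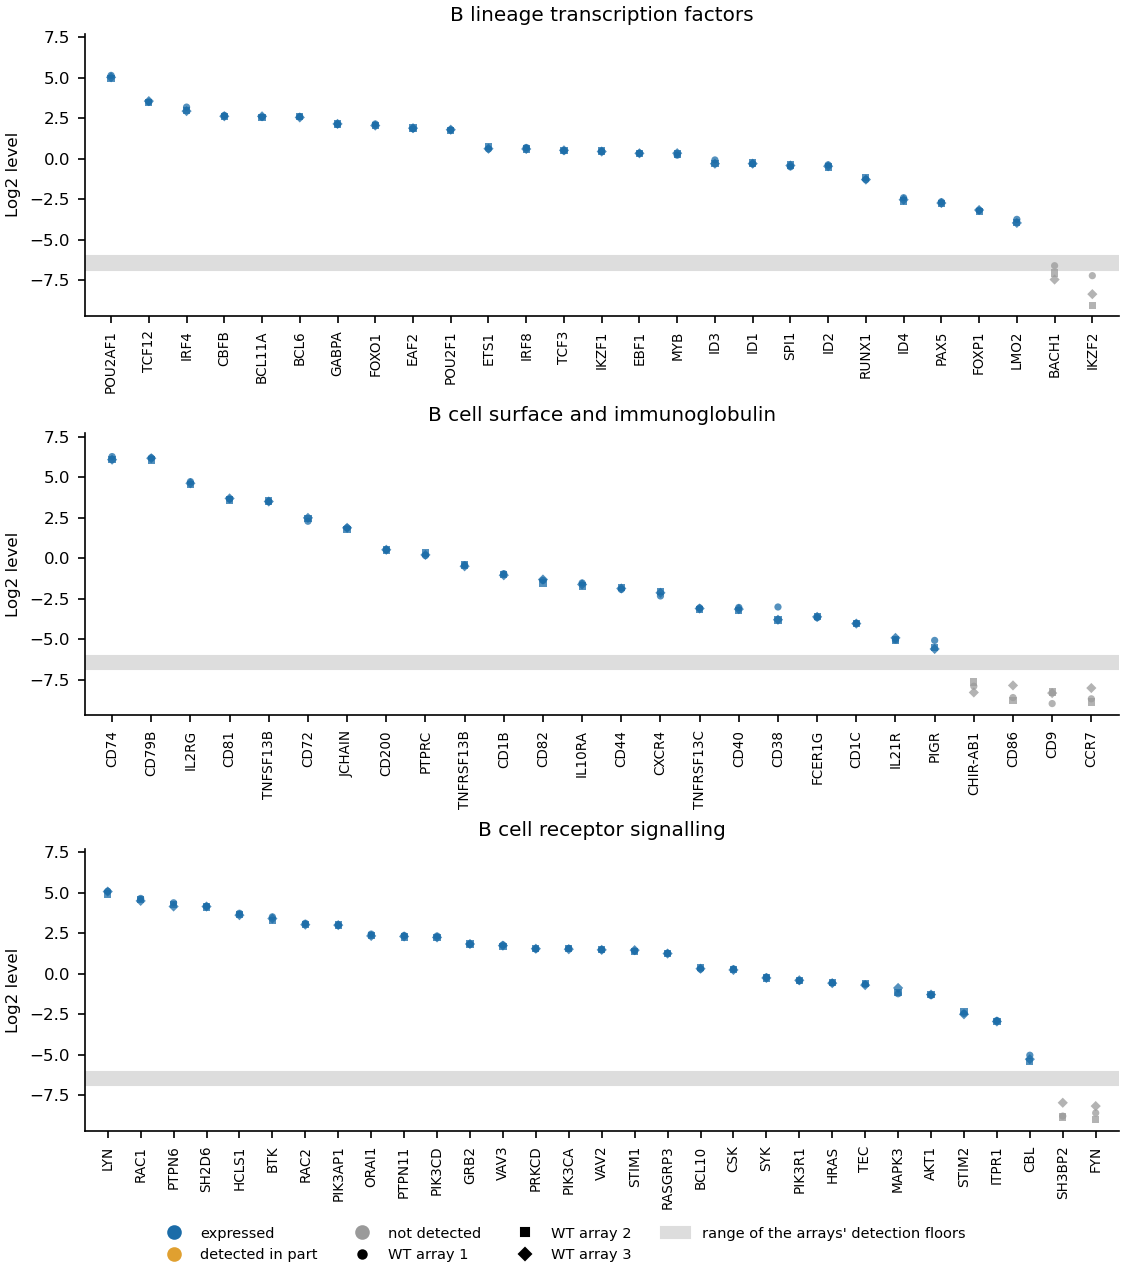
Log2 level (y axis, 0 is the 75th percentile of the array) of each gene on WT arrays 1, 2 and 3 (circle, square and diamond) for reported B lineage transcription factors, B cell surface genes and genes of B cell receptor signalling, ordered by mean, with colour for the class. The points of an expressed gene mostly overlap, and the 8 genes not detected lie in or below the grey band of the arrays' floors.

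At the cell surface the receptor's signalling chain and the invariant chain stood out. Of 26 surface and immunoglobulin-related genes 22 (84.6%) were expressed, against 74.8% over all genes, with a median log2 level of -1.74. CD79B, a signalling chain of the B cell receptor, read 6.19, 6.06 and 6.17, brighter than 98.7% of all genes measured. CD74, the invariant chain that guides MHC class II molecules, read 6.27, 6.10 and 6.08. IL2RG, the common gamma chain shared by several cytokine receptors, read 4.72, 4.53 and 4.62. Arrays differed by less than 0.2 log2 for each of them.

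CD81, a tetraspanin of the B cell coreceptor, read 3.65, 3.59 and 3.69. CD72, a coreceptor with inhibitory motifs, read 2.28, 2.43 and 2.49. TNFSF13B, which encodes the B cell survival factor BAFF, read 3.49, 3.53 and 3.50 with 5 of 5 probes well above background on every array. Its receptors TNFRSF13B and TNFRSF13C were expressed too, at means of -0.44 ± 0.05 and -3.11 ± 0.04 (SD, n = 3). Ligand and receptors of this pathway were thus expressed on the same arrays. JCHAIN, which joins polymeric immunoglobulin, read 1.87, 1.79 and 1.87.

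The other expressed surface genes were CD200, PTPRC, CD1B, CD82, IL10RA, CD44, CXCR4, CD40, CD38, FCER1G, CD1C, IL21R and PIGR, with means from -5.39 for PIGR to 0.51 for CD200. FCER1G and IL21R were each detected on 1 of 2 probes. PTPRC, the phosphatase known as CD45, read 0.17, 0.31 and 0.20. CD40, the receptor for T cell help, read -3.04, -3.25 and -3.14. CD44 and CD200 were not detected on the DKO-labelled arrays, at means of -8.14 and -8.24, against -1.87 and 0.51 on the WT-labelled arrays.

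The other 4 of the 26 surface genes were not detected: CHIR-AB1, CD86, CD9 and CCR7. CHIR-AB1, a chicken receptor for the Fc part of IgY, had 0 of 3 probes detected and read -7.90, -7.63 and -8.28. On the DKO-labelled arrays it was expressed at -0.36. CD86, a costimulatory ligand for T cells, read -8.60, -8.76 and -7.85. CCR7, a homing receptor for lymphoid tissue, read -8.67, -8.87 and -8.01. CD79A, CD22, CR2, CXCR5 and the light chain gene had no matched probe and were not analysed here.

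Signalling downstream of the receptor was expressed nearly throughout. Of 32 genes 30 (93.8%) were expressed, with a median log2 level of 1.51. LYN, the Src family kinase that starts the signal, read 5.08, 4.92 and 5.07 on its brightest probe. SH2D6, the RefSeq symbol that carries the adaptor name BLNK among its synonyms, read 4.16, 4.11 and 4.14. BTK read 3.51, 3.29 and 3.40 and SYK read -0.21, -0.27 and -0.26. All 4 genes had every probe well above background on 3 of 3 arrays.

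PTPN6, the phosphatase SHP-1 that restrains the receptor, read 4.38, 4.29 and 4.15. BCL10, which carries the signal to NF-kB, had a mean of 0.32 ± 0.05 (SD, n = 3). ORAI1, the calcium channel of the plasma membrane, read 2.44, 2.34 and 2.33, and the calcium sensors STIM1 and STIM2 were expressed at means of 1.42 and -2.42. STIM1 had 1 of 3 probes detected on every array, and its dimmest probe had a mean of -7.42. The lipid kinase subunits PIK3CD, PIK3CA and PIK3R1 had means of 2.26, 1.54 and -0.42, and the adaptor PIK3AP1, known as BCAP, had 3.00. Further expressed members were RAC1, HCLS1, RAC2, PTPN11, GRB2, VAV3, PRKCD, VAV2, RASGRP3, CSK, HRAS, TEC, MAPK3, AKT1 (on 1 of 2 probes), ITPR1 and CBL. CBL was the dimmest of them at -5.03, -5.39 and -5.27, and it was not detected on the DKO-labelled arrays, at -7.14.

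FYN and SH3BP2 were not detected, each on 1 probe. FYN, a Src family kinase best known from T cells, read -8.59, -8.99 and -8.16, and the adaptor SH3BP2 read -8.78, -8.84 and -7.96. FYN was expressed on the DKO-labelled arrays at a mean of -3.35. PLCG2, VAV1, INPP5D and PRKCB had no matched probe and were not analysed here.

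Genes of DNA repair that serve immunoglobulin diversification were almost all present. Of 50 measured, 48 (96%) were expressed, with a median log2 level of 0.93. Gene conversion needs strand exchange, in which RAD51D and XRCC3 take part, and these genes had means of 3.13 ± 0.03 and 1.90 ± 0.10 (SD, n = 3). BRCA1 and BRCA2, which act in homologous recombination, had means of 1.22 and 1.15, and RAD52 and RAD54B had 0.13 and 1.97.

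Somatic mutation passes through uracil in DNA and its bypass. UNG, which removes uracil, read -0.68, -0.60 and -0.54. The polymerases of bypass POLH, REV1 and POLQ had means of 1.51, 0.43 and -0.51, and MAD2L2, a subunit of polymerase zeta, had 0.81. RAD18 and PCNA, which direct bypass at stalled forks, read 3.47, 3.44 and 3.37 and 4.20, 4.19 and 4.20. POLK was not detected, at -8.89, -9.00 and -8.21 on its 1 probe. Apart from POLK, each translesion polymerase with a named probe was thus expressed.

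The genes of V(D)J recombination divided. RAG1, the recombinase that assembles immunoglobulin genes, was not detected with 0 of 2 probes and read -8.71, -8.85 and -7.98. DNTT, which adds untemplated bases at the joints, was dim at -4.79, -4.62 and -4.44, with 1 of its 2 probes detected. The end-joining genes XRCC6, PRKDC, LIG4 and DCLRE1C were expressed at means of 2.57, -0.85, -0.25 and -4.96. RAG1 was not detected on the DKO-labelled arrays either. RAG2 had no matched probe and was not analysed here.

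Fanconi anaemia genes FANCA, FANCB, FANCC, FANCD2, FANCG, FANCI, FANCL and BRIP1 were all expressed, between -3.15 for FANCD2 and 3.25 for FANCL. Further expressed members were PARP1, HMGB1, HMGB2, TOP1, TOP2A, XPA, FEN1, BLM, RECQL, CHEK1, CHEK2, ATM, MRE11, NBN, DCLRE1A, DCLRE1B, RDM1, APEX1, SMARCAL1, RNF8 and TERT. PARP1 was the brightest of the list at 5.91, 5.88 and 5.87.

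All 12 plasma cell genes with a named probe were expressed. XBP1, a factor that widens the secretory pathway, read 4.65, 4.65 and 4.74, and the chaperone HSP90B1 of the endoplasmic reticulum read 4.19, 4.22 and 4.27. EDEM1, of the degradation of misfolded glycoproteins, had a mean of 1.37. SDC1, CXCR4 and CD38, in this list as surface markers, were at 0.18, -2.17 and -3.54. Many genes of this list serve secretion or are shared with other B cell stages. PRDM1, which encodes BLIMP-1, had no matched probe and was not analysed here.

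Antigen presentation was uneven. Of 21 genes, 16 (76.2%) were expressed, 2 were detected in part and 3 were not detected, close to the share over all genes. The class I heavy chain genes BF1 and BF2 were among those not detected. BF1 had 0 of 5 probes detected and its brightest probe read -6.63, -7.20 and -6.81, and BF2 had 0 of 2 and read -7.25, -6.80 and -6.91. B2M, the light chain that class I molecules need, was detected in part at -6.21, -6.27 and -6.35, with 0 of 3 probes detected on every array. All 3 genes had readings near the arrays' floors. Without array 3, whose floor was the highest, the rule asked only for the arrays that remained. B2M and TAP1 then counted as expressed, which made 18 of 21.

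Of the peptide transporter, TAP1 was detected in part at -5.86, -6.14 and -6.41 and TAP2 was expressed at -1.60, -1.73 and -1.87. TAPBP, which loads peptide on class I, read -0.42, -0.47 and -0.58. The class II beta chain BLB1 read -4.00, -4.09 and -4.03 with 2 of 2 probes detected, while the helpers DMA and DMB2 had means of -0.54 and -4.31. The invariant chain CD74 and the protease CTSS, which trims it, lay far higher, at means of 6.15 and 3.78. CANX, RFXANK and PDIA3 completed the 5 brightest members with CD74 and CTSS. BLEC2, a lectin-like gene of the same chromosomal region, was not detected at -7.83, -8.85 and -8.03. On the DKO-labelled arrays 16 of the 21 were expressed as well, and BF1, BF2, B2M and TAP1 kept their classes.

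**Figure D3:**
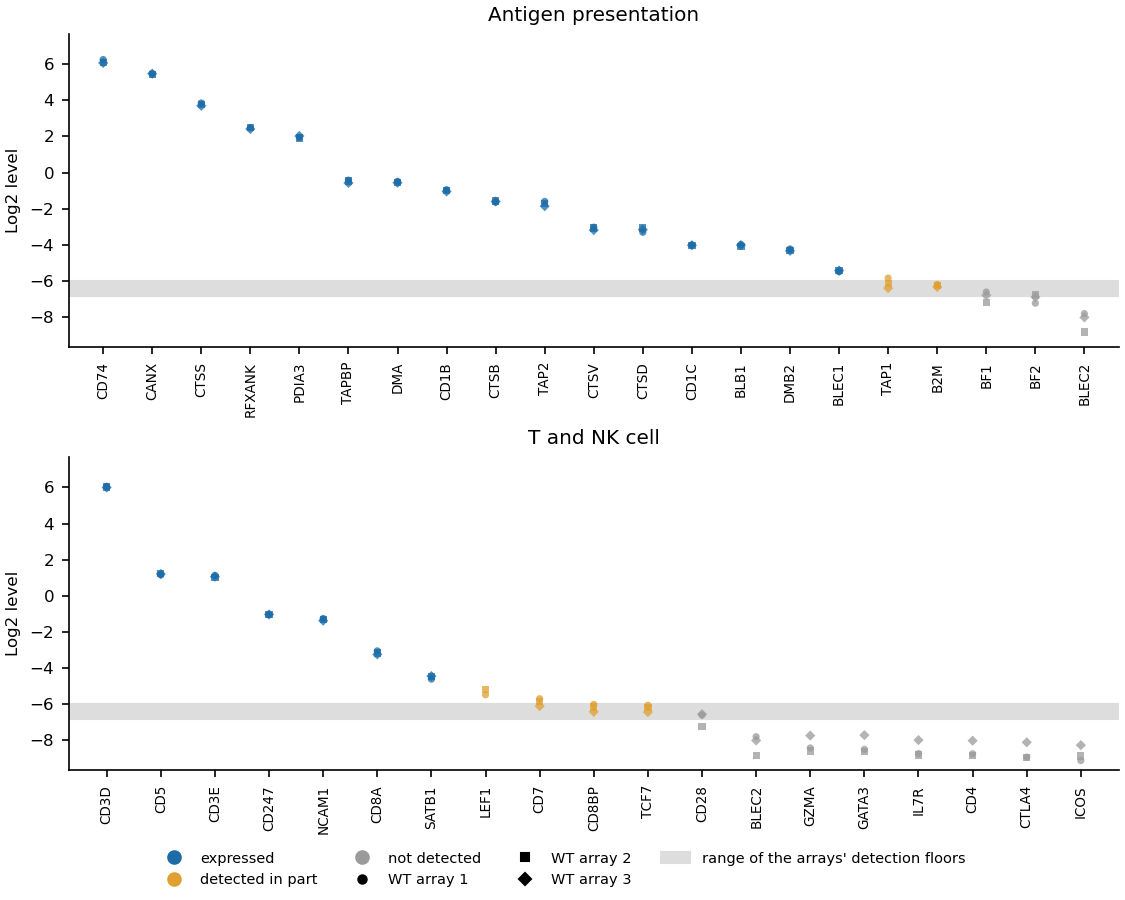
Log2 level (y axis, 0 is the 75th percentile of the array) on WT arrays 1, 2 and 3 (circle, square and diamond) of genes of antigen presentation and of T and NK cell markers, ordered by mean and coloured by class. CD74 and CD3D stand highest, at means of 6.15 and 6.03, while BF1, BF2 and B2M lie in or near the grey band of the arrays' floors.

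Some genes best known from T cells were expressed. CD3D, a chain of the T cell receptor complex, read 6.05, 6.03 and 6.00, brighter than 98.4% of the genes, and its other probe had a mean of 3.18. CD3E, another chain of that complex, read 1.12, 1.01 and 1.05 with 3 of 3 probes detected. CD247, the zeta chain, read -1.06, -1.04 and -1.04 with 2 of 3 probes detected, and its dimmest probe had a mean of -8.35. CD5, present on some B cells too, read 1.15, 1.22 and 1.20, and CD8A read -3.07, -3.18 and -3.26. CD3D was thus among the brightest genes with all arrays within 0.06 log2. CD3E was not detected on the DKO-labelled arrays, at a mean of -6.97.

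Other T cell genes, CD4, CD28 and CTLA4, were not detected, with 0 of 2, 0 of 2 and 0 of 1 probes. CD4 read -8.77, -8.89 and -8.05, CD28 read -6.62, -7.24 and -6.58, and CTLA4 read -8.96, -8.99 and -8.14. CD28 was expressed on the DKO-labelled arrays, at a mean of -4.88 with an SD of 1.35. The T cell factor GATA3, the costimulator ICOS, the protease GZMA, the receptor IL7R and the lectin-like BLEC2 were not detected either. NCAM1 and SATB1 were expressed at -1.32 and -4.53, NCAM1 on 1 of 6 probes. Over the list of 19 T and NK cell genes, 7 (36.8%) were expressed, 4 were detected in part and 8 were not detected. Without array 3, whose floor was the highest, the rule asked only for the arrays that remained, and 11 of the 19 were expressed. CD7, CD8BP, LEF1 and TCF7 made the difference. LEF1 had no value on array 3, where its spot was an outlier.

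Genes of innate sensing were expressed at a share near that of all genes. Of 32 measured 26 (81.2%) were expressed, against 74.8%, and 5 were not detected. TLR7, an endosomal receptor of single-stranded RNA, read 1.31, 1.32 and 1.21. TICAM1 and MYD88, the adaptors of Toll-like receptors, had means of 2.19 and 1.08, and JAK1, IFNGR2 and EIF2AK2 had 1.58, 1.09 and 1.09. TLR3 and IFIH1, both sensors of double-stranded RNA, were not detected at means of -8.48 and -8.54, IFIH1 on 0 of 3 probes. MX1, an interferon-induced GTPase, was not detected at -8.48, nor were IFNG and TLR1B. All 7 interferon regulatory factors measured were expressed on the WT-labelled arrays, between -5.24 for IRF9 and 3.03 for IRF4. IRF9 was not detected on the DKO-labelled arrays, at -7.12, and IRF1 was detected in part, at -6.05, while TLR1B was expressed there at -4.84.

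Cytokines and their receptors were detected less widely. Of 73 measured, 30 (41.1%) were expressed, 7 were detected in part and 36 were not detected, against 74.8% and 19% over all genes. Of 15 interleukins 2 were expressed, IL17A and IL1B, at means of -4.87 and -5.38. IL1B was not detected on the DKO-labelled arrays, at -6.29, while IL18, not detected at -8.05 on the WT-labelled ones, was expressed there at -4.67. IL2, IL3 and IL5 were not detected. The common chain IL2RG and the factor TNFSF13B, both described above, were among the 5 brightest members, with LITAF, TGFB3 and TNFRSF21 at 4.51, 3.15 and 2.00. TGFB3 read 3.20, 3.09 and 3.17.

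Some measured partners of an expressed receptor chain were not detected. IL2RG was bright, while IL2RA and IL7R, which pair with it, were not detected, at means of -8.50 and -8.54. IL21R, another partner, was dim at -5.05, -5.05 and -4.91 with 1 of 2 probes detected. The further partners IL2RB and IL4R had no matched probe and were not analysed here. The TGF-beta receptors TGFBR1 and TGFBR2 were expressed at 0.20 and -2.92, beside TGFB3. CXCR4 and its ligand CXCL12 were both expressed, at -2.17 and -1.74. CXCL12 was so on 1 of 2 probes, and its other probe was at 0 of 3 arrays with a mean of -8.31. IL1R1, IL1RL1 and IL8L1 were not detected. IL1RL1 was expressed on the DKO-labelled arrays at 3.62, against -8.48 on the WT-labelled ones, and KIT at -3.46 against -8.52.

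Genes of proliferation were complete. All 43 cell cycle genes with a named probe were expressed, with a median log2 level of 2.88. E2F1, the factor of S phase entry, read 5.43, 5.25 and 5.47. CDC20, CCNB1 and CDK1, which run mitosis, had means of 5.31, 5.30 and 5.23, and BIRC5, of the chromosomal passenger complex, had 5.17. MCM and ORC subunits, which license origins, were expressed in 8 of 8 cases. Among D cyclins, CCND3, CCND1 and CCND2 had means of 2.33, 1.35 and -1.36.

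All 19 genes of the MYC network and of viral integration sites were expressed. MYC, the gene that avian leukosis virus often activates in bursal lymphoma, had 1 probe and read at a mean of 4.65 ± 0.06 (SD, n = 3), brighter than 94.5% of genes. NPM1, HSPE1, LDHB, HSPD1 and NCL led the list, with means from 5.79 for NCL to 6.57 for NPM1. TERT, the catalytic subunit of telomerase, had 26 probes, of which 22 were detected on every array, with probe means from -6.08 to 1.88. The level of a gene with probes this far apart rests on the probe that is taken.

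Of 20 tumour suppressors and cell cycle brakes 19 (95%) were expressed. RASSF2, a RAS effector, read 5.00, 5.01 and 5.03, and CDKN2A, the chicken ARF locus, read 4.26, 4.28 and 4.44. BTG1, NF2 and GADD45A had means of 4.12, 2.67 and 1.78. CDKN1A, an inhibitor of cyclin-dependent kinases, was lower on its probe, at -3.16. WT1 was not detected at -7.84.

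Of 24 apoptosis genes 19 (79.2%) were expressed, near the share over all genes. Among protectors, BCL2L1, known as BCL-XL, read 3.06, 3.06 and 3.05 with 4 of 4 probes detected, while BCL2 had a mean of -4.19 on 1 probe and BCL2A1 was not detected. BCL2L10, known in birds as NR-13, had a mean of 0.72. On the executing side, AIFM1, CYCS and BID had means of 4.67, 4.57 and 2.96. The death receptor FAS was not detected at -8.49 on 1 probe, nor were CASP18 and DIABLO.

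Glycolysis was bright. Of 24 genes 22 (91.7%) were expressed, with a median log2 level of 2.66, and 5 members, GAPDH, ENO1, ALDOC, PGAM1 and LDHB, had means above 6. SLC2A1, a glucose transporter, had a mean of -0.63 and PFKM, the muscle form of phosphofructokinase, had -5.41 with 2 of 4 probes detected. PCK1, which makes glucose, and PDK4, which shuts pyruvate oxidation, were not detected at -8.72 and -8.46. PCK1 was expressed on the DKO-labelled arrays, at -2.61.

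Most marker lists of other cell types had lower shares expressed than the 74.8% of all genes, while that of monocytes and macrophages lay near it. These lists were chosen with earlier results of these data known. The 9 B cell markers, each already counted in the B cell lists above, were all expressed. By contrast, 1 of 7 granulocyte genes, 2 of 9 endothelial genes, 6 of 24 muscle genes, 8 of 30 genes of neurons and lens, 8 of 27 genes of fibroblasts and matrix, 7 of 22 genes of liver and oviduct and 6 of 15 erythroid genes were. The shares were 8 of 15 for epithelium, 5 of 8 (62.5%) for thrombocytes and 14 of 20 (70%) for monocytes and macrophages. On the DKO-labelled arrays 16 of these 20 monocyte and macrophage genes were expressed. Without array 3, when the rule asked only for the arrays that remained, the erythroid count was 10 and the granulocyte count 2.

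**Figure D4:**
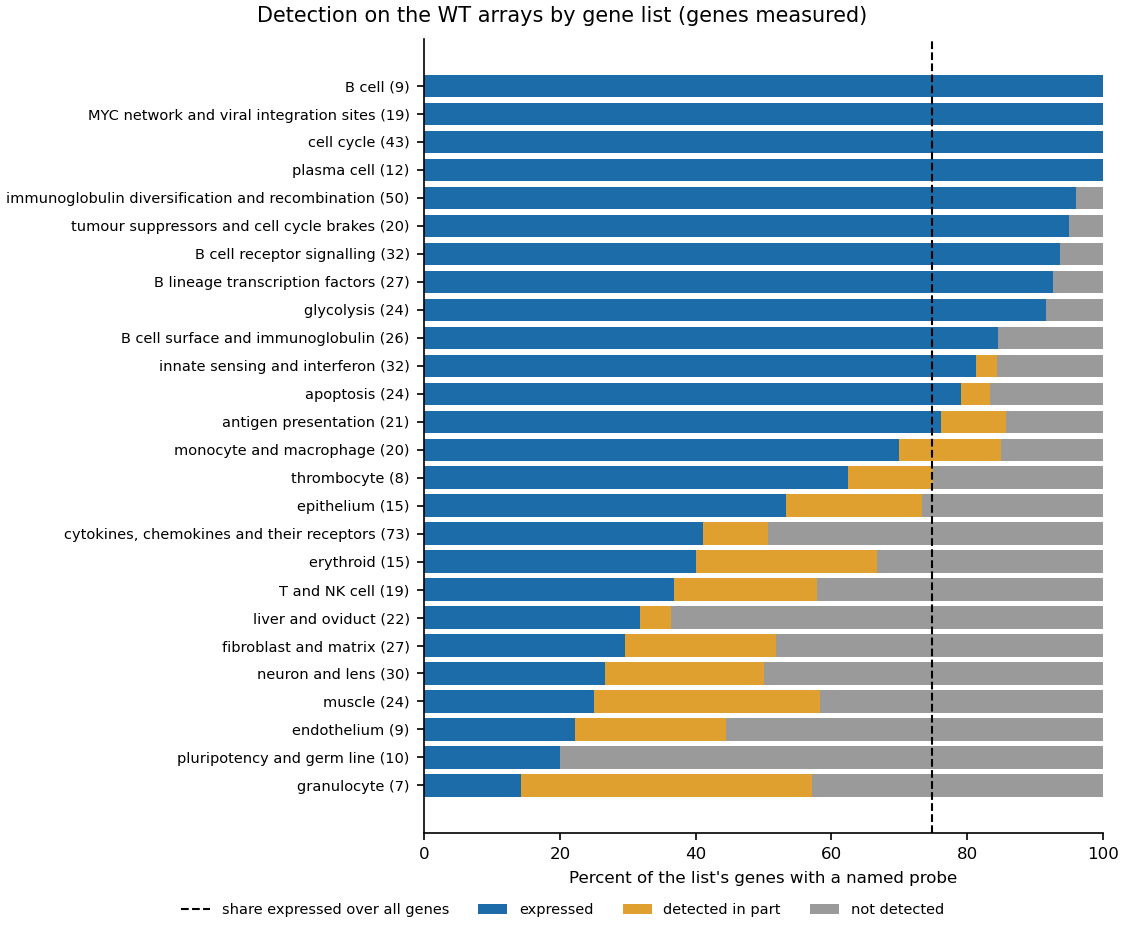
Share of each list's measured genes (x axis, percent) that were expressed, detected in part or not detected on the WT arrays, with the number of genes measured in brackets and a dashed line at the 74.8% over all genes. Lists of B cells, the cell cycle, the MYC network and plasma cells reach 100%, and granulocyte genes have the lowest share at 14.3%.

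Within the myeloid list, the expressed genes were partly shared by leukocytes. ITGB2, the beta chain of leukocyte integrins, read 2.87, 2.82 and 2.84, and NCF1C and CYBB, of the phagocyte oxidase, had means of 1.39 and -1.36. TLR2 and LYZ had -0.07 and -1.82. CD14 and MARCO were not detected, while the other macrophage markers NOS2, CTSK, CD36 and TIMD4 were expressed, at means from -4.51 for TIMD4 to -2.19 for NOS2. CD36 was so on 1 of 3 probes and TIMD4 on 1 of 2. CSF3R, IL8L1 and LYG2 were the granulocyte genes not detected, and CATH1, a cathelicidin, was the 1 expressed at -2.71. For thrombocytes, TUBB1, ITGB3, PLEK and F5 were expressed from -5.31 to -1.26, while GFI1B and TREMB2 were not detected. ITGB3 and PLEK were each detected on 1 of 2 probes. PLEK and F5 were not detected on the DKO-labelled arrays, at -6.20 and -6.24, and TREMB2 was expressed there at -2.84.

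In the erythroid list, the globins HBAD and HBBA were expressed but dim, at -3.91 and -5.38, and H1F0, TFRC, GATA2 and LMO2 lay between -3.89 and -1.55. TAL1, RHAG, HBZ and HBE1 were not detected, nor was BFSP1, a lens gene that the list also counts. In the matrix list VIM, an intermediate filament also of lymphocytes, read 4.91, 4.83 and 4.94, and TIMP2, COL1A2, SPARC and COL6A3 followed at -4.21 to -0.12. COL1A2 was detected on 2 of 5 probes, SPARC on 2 of 3 and COL6A3 on 1 of 3. COL6A1, COL6A2, COL4A1, COL4A2, COL12A1, DCN, POSTN and FBLN1 were among the 13 not detected. The endothelial genes CDH5, FLT1, ERG, PROX1 and LYVE1 were not detected, while ENG and SOX17 were expressed at -2.13 and -3.70. SOX17 was so on 1 of 3 probes. FLT1 and PROX1 were expressed on the DKO-labelled arrays, at -1.76 and -1.67.

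Egg and liver proteins were mostly not detected, among them FGG, TTR, VTG1, VTG2, OVAL, OVALY, SPINK7 and CYP7A1. Those expressed were dim, with APOA4, FGB, TF, ALB and APOA1 between -4.07 and -1.44. ALB was detected on 1 of 2 probes, APOA1 on 1 of 3 and TF on 4 of 7. Muscle genes not detected included ACTC1, MYF5, MYOG, TNNT2, MYH1B, MYH7B, MYL1 and MYL3, and the brightest expressed were MEF2A and TPM1, at 1.97 and 0.83, which many tissues use, before TNNC2, MYH7 and TNNC1 at -5.29 to -2.57. MYH7 was detected on 1 of 4 probes. In the epithelial list CLDN5 (also a claudin of endothelium), SHH, OCLN, CLDN3 and KRT7 were expressed at -4.31 to -1.10. SHH was detected on 1 of 2 probes, CLDN5 on 3 of 4 and KRT7 on 2 of 4. EPCAM, CLDN1, DSP and CDX2 of that list were not detected. Of these genes of the liver, muscle and epithelial lists, TF was not detected on the DKO-labelled arrays, at -7.35. MYH7B and DSP were expressed there, at -5.52 and -5.85.

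A few markers of distant tissues were bright. STMN2, a tubulin-binding protein of neurons, read 5.27, 5.20 and 5.31 on its 1 probe, brighter than 96.8% of genes. CRYGN, a gamma crystallin, read 1.76, 1.71 and 1.74, also on 1 probe. COL2A1, the collagen of cartilage, read 3.43, 3.20 and 3.24 on 1 probe, while 4 of its other 5 probes were at 0 of 3. STMN2 and CRYGN thus had no other named probe to set beside them, and those of COL2A1 disagreed. NEUROD1, ASL1 and CRYBA1 were dimmer, at -2.20, -1.01 and -1.94. NEFM, SYP, NEUROG1, ELAVL4, GRIA1 and GRIA2 were not detected. GRIA2 was expressed on the DKO-labelled arrays, at -2.78, and ASL1 was detected in part there, at -6.61.

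Of genes of pluripotency and germ line, NANOG, SOX2, LIN28A, LIN28B, DDX4, DAZL, KIT and ZP3 were not detected. The DKO-labelled arrays had LIN28B and KIT expressed, at -3.50 and -3.46. DMRT1 and PIWIL1 were expressed, at -2.90 and -3.30, each on 1 of 2 probes. With every probe of a gene required, 0 of the 10 were expressed.

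Several families that pattern the embryo had many members below background. Of 15 factors of the homeobox clusters 11 were not detected and 2, HOXA4 and HOXA11, were expressed at -2.27 and -5.30. The classes were 9 of 14 not detected for WNT ligands, 3 of 4 for bone morphogenetic proteins, 7 of 14 for fibroblast growth factors, 7 of 12 for LIM and NK homeobox factors, 3 of 4 for GATA factors and 16 of 22 for cadherins. Of channels of nerve and muscle, 14 of 27 ligand-gated channels and 11 of 22 potassium channels were not detected. Of 7 sodium and calcium channels, by contrast, 5 were expressed and 2 were not detected. All these shares exceed the 19% over all genes.

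Other families were mixed. Of 90 solute carriers 63 were expressed, with SLC25A3, the phosphate carrier of mitochondria, brightest at 5.28. Of 12 FOX factors 10 were expressed, led by FOXO1 at 2.07, and of 11 SOX factors 4, led by SOX4 at -0.39. Among other families of embryonic patterning, 3 of 6 PAX factors and 3 of 5 frizzled receptors were expressed, and 1 and 2 were not detected. Of 10 integrins 9 were expressed, led by ITGB1 at 3.07. Cytochrome P450 genes were expressed in 5 of 16 cases, led by CYP21A1 at -0.76.

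Neighbouring genes shared their class more often than genes at large. In RefSeq order, 1623 pairs of adjacent protein-coding genes both had a symbol and a probe. Beside a gene not detected, 34.8% of neighbours were not detected, against 19.1% over all genes in such pairs. Beside an expressed gene, 79.2% of neighbours were expressed, against 73.4%. The longest run of adjacent genes not detected held 4 genes, CDH19, CDH7, MC2R and MC5R. A gene without a named probe ended a run, so the length of a run also depends on which genes were measured. Runs of 3 included ICOS, CTLA4 and CD28, the last of which was expressed on the DKO-labelled arrays as given above, the cluster HOXD11, HOXD12 and HOXD13, and the cytokine genes CSF2, IL3 and KK34. Some of these runs held members of a single gene family.

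The 3 arrays were close to each other. Pearson's r across the 4886 genes lay between 0.994 and 0.995 for the 3 pairs of arrays and Spearman's rho between 0.993 and 0.994, and genes are not independent of each other. The SD of an expressed gene over the 3 arrays had a median of 0.05 log2. By deciles of level, the median SD was 0.119 log2 in the dimmest decile, 0.0361 in the decile from 1.77 to 2.50 and 0.0702 in the brightest. Replicate spots of 50 probes within an array had a median SD of 0.0574 log2.

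**Figure D5:**
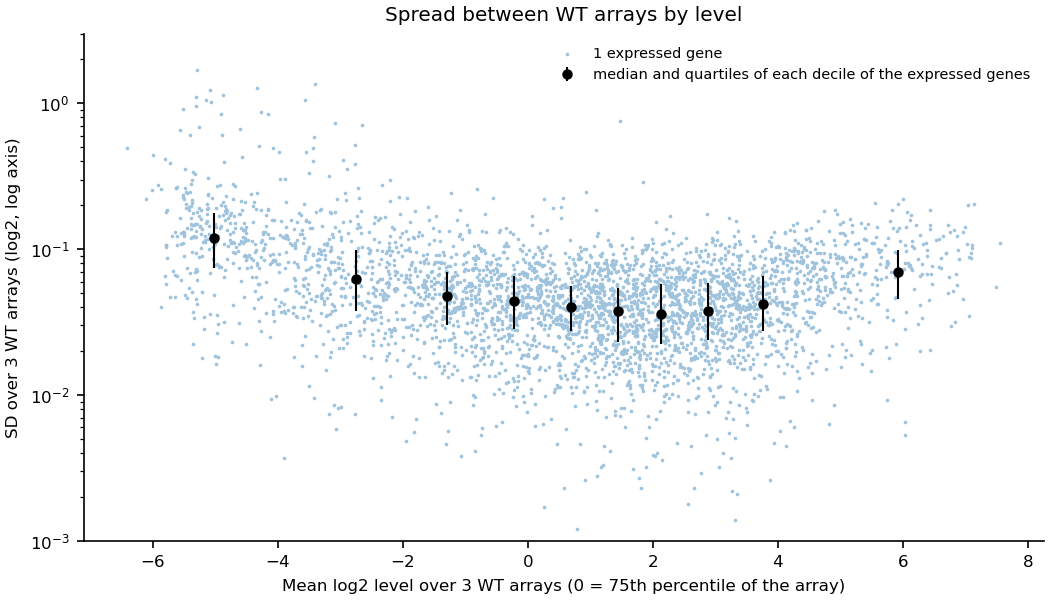
SD over the 3 WT arrays (y axis, log2 units on a log axis) against mean log2 level (x axis) for expressed genes, with black points and bars for the median and quartiles of each decile by level. The median SD is 0.119 in the dimmest decile and 0.0361 in the decile of lowest spread, and it is 0.0702 in the brightest.

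The 10 expressed genes with the widest range were all dim: CAT, CRYBA4, NPPA, GBP, IL17A, MPPED2, TBC1D13, GSTT1, HOXA11 and CACNA1D. CAT, the enzyme catalase, read -6.54, -5.96 and -3.38, a range of 3.17 log2. CRYBA4, a beta crystallin, read -1.84, -4.22 and -4.15. A single array stood apart in each of these, array 3 for CAT and array 1 for CRYBA4. PCDHA6, a protocadherin with 1 of 2 probes detected, was brighter and read 2.34, 1.13 and 0.94.

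Probes of one gene differed far more than arrays did. Of the 4886 genes 1708 had 1 probe. Among the 2350 expressed genes with several probes detected on every array, the median range between those probes was 2.29 log2. Of the 3657 expressed genes, 241 also had a probe at 0 of 3 arrays. Such a gene counts as expressed on its brightest probe, as for NCAM1, COL2A1 and DNTT above.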

How the data were processed

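RNA of DT40 cells was hybridised to Agilent one-colour chicken arrays. Per the file headers, the processed signal is an intensity that Feature Extraction 10.7.1.1 background-subtracted and detrended within an array, with no normalization between arrays. A deposited value table also holds intensity, and per the submitters' processing notes limma and R 2.12.0 were used. It was used only to check labels.

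Outlier spots were left out (82, 79 and 103), spots of a probe were averaged, and log2 of the deposited intensity was taken minus the 75th percentile of the array. Symbols came from a RefSeq table, and 32984 probes remained unnamed. Classes and alternatives were computed in Python 3.11.15 (pandas 2.3.3). Normexp (offset 50) followed by quantile normalization was run in R 4.3.3 with limma 3.58.1 on the median signals, as the files hold no mean signals. Quantile normalization alone was run there on the processed signal. The functions were checked on simulated data. The number of arrays limits the precision, and no test was made.

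Members, lists, families and the rule for named genes were chosen with earlier results of these data known. The rule named the 30 brightest genes, the 15 brightest outside ribosomal proteins, translation factors, histones, actins and tubulins, all members of 4 B cell lists, up to 5 bright and 8 undetected genes of each other list, the 10 widest genes, IRF4 and BCL6. Further genes named, such as MYC, TERT, BCL2, B2M, TAP1, BLB1, COL2A1, NOS2, IRF1 and PCDHA6, were chosen after their values were seen. Of the lists, 14 names whose synonym leads to another gene were left unmatched. Promoter sequences were not used here, and some genes that the rule names are not reported here.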

Additional observations from a re-analysis of the deposited data

Results flagged for a closer look

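Signal outside the named genes was found on the probes that carry no RefSeq symbol. Of 32984 such probes, 17318 of them designed on Ensembl transcripts, 18942 (57.4%) were well above background on all 3 WT arrays, against 0 of 153 negative control spots and 75% of the named probes. They are given as values only, since no gene name was available for them in the tables used here.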

How the results depend on the processing

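Counts of expressed genes stayed within 1.5 times the main count under every alternative that was run. The count of genes not detected fell from 926 to 420 with the laxer flag for a positive and significant signal. With that flag the expressed counts rose to 11 for T and NK cell genes, 4 for granulocytes, 11 for the erythroid list, 16 for fibroblast and matrix, 4 for endothelium, 11 for liver and oviduct, 14 for muscle, 15 for neuron and lens and 4 for pluripotency and germ line. With 2 of 3 arrays sufficient, the counts were 11 for T and NK cells, 2 for granulocytes and 10 for the erythroid list. With every probe of a gene required, they were 9 for monocytes and macrophages, 3 for thrombocytes, 4 for fibroblast and matrix, 1 for endothelium, 2 for epithelium, 2 for liver and oviduct and 0 for pluripotency and germ line. Leaving out each array in turn gave 7 to 11 for T and NK cells, 1 to 2 for granulocytes, 6 to 10 for the erythroid list and 8 to 12 for neuron and lens, each highest without array 3, and 29 to 30 of the 30 brightest genes. With an array left out, the rule asked only for the arrays that remained. An expressed count could then stay or rise but not fall, so these ranges mix the array with a laxer rule. On the DKO-labelled arrays, an alternative added after seeing the data, the counts were 2 for granulocytes, 4 for endothelium and 4 for pluripotency and germ line. The mean over all probes kept 18 of the 30 brightest genes. For the changes that come with a laxer or stricter rule the cause lies in the rule, and for the others the cause was not tested.

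The order of genes had a Spearman's rho to the main order of 1 under scaling to the median and to the percentile of detected probes, and of 0.996 with normexp and quantile normalization, where 4 of 397 named genes moved by over 10 percentiles. With the mean over probes, which is no scaling but another summary of a gene, rho was 0.966 and 62 of the 397 moved that far, TERT the most, by 37.7. On the DKO-labelled arrays rho was 0.954 and 66 moved that far, IL1RL1 the most, by 81.1. The authors' value table was not run, since its WT columns do not follow the WT scanner arrays. No paired analysis was possible because the profile comes from no test between groups.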
